A study of Rattus norvegicus with 4 samples.

Results

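The 3 ligands named transforming growth factor beta (TGF-beta) and 5 secreted proteins of the scar were described across 4 rat liver arrays. The TGF-beta pathway acts on these 5, or they act back on it. The genes are Tgfb1, Tgfb2 and Tgfb3 (the ligands), Ccn2 (connective tissue growth factor), Serpine2 (protease nexin 1), the thrombospondins Thbs1 and Thbs2, and Fn1 (fibronectin). Members were taken by name, through the symbol in the files or the current name of the probe's accession. Of the 8 genes, 7 had a probe, among 20024 genes on the array. Thbs1 was not analysed here, because no probe carried its name, accession or identifier. Each of the 7 had 1 probe, and all 7 were above background on all 4 arrays, as were 14131 genes in all.

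The arrays came from livers of Sprague-Dawley rats of 4 groups. The first was transgenic for a dominant negative connexin 32 and ate a methionine-choline deficient diet with luteolin, a plant flavonoid. Next were transgenic rats on that diet without luteolin, wild-type rats on the diet with luteolin, and wild-type rats on the diet without it. Every rat had also received the liver carcinogen diethylnitrosamine by intraperitoneal injection at an age of 10 weeks, and the diets ran for 12 weeks, so no array shows a healthy liver. Connexin 32, encoded by Gjb1, is the main gap junction protein of hepatocytes. No source used here gives the transgene's promoter, the sex of the rats, the luteolin dose or how many rats stand behind an array. Each group had 1 single-colour array, so no ratio below has a replicate check and no neighbours in an order of levels can be told apart by replicate spread.

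TGF-beta is secreted in a latent form bound to matrix, and is set free by integrins, proteases or thrombospondin. The free ligand joins its receptors on the cell surface, and these phosphorylate SMAD proteins that enter the nucleus and switch on target genes. In injured liver this is the best known signal that turns hepatic stellate cells into myofibroblasts, the cells that lay down fibrillar collagen. CCN2 is a matricellular protein, one that sits in the matrix and signals rather than bearing load, and its gene is induced by TGF-beta and by the YAP and TEAD factors that respond to tissue stiffness. SERPINE2 inhibits thrombin and plasminogen activators, THBS2 is a matricellular inhibitor of vessel growth, and fibronectin is made by hepatocytes for plasma and by mesenchymal cells for the scar.

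The promoters of Ccn2 and Serpine2 are shown because these were the members that differed by 2-fold or more between arrays. Both are RefSeq sequences of the rat build GRCr8, from 250 bases before to 50 bases after the annotated start, printed 5′ to 3′ on the gene's strand. Capitals mark any of 5 motifs, each searched on both strands. The core bound by TEAD factors was taken as GGAATG, and the core bound by SMAD proteins as CAGAC. The letters of the TATA box, where transcription is set up, were TATAAA. For the AP-1 factors the search used TGACTCA, and for the Sp1 factor, which binds boxes rich in G and C, it used GGGCGG.
Ccn2, chr1:22624565-22624864, minus strand: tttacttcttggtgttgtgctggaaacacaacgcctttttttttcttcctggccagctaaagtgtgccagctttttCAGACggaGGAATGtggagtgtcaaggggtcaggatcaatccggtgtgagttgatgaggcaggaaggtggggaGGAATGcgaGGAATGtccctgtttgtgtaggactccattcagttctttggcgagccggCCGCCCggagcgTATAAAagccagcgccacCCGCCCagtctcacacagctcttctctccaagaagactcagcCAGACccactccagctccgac
Serpine2, chr9:88637153-88637452, minus strand: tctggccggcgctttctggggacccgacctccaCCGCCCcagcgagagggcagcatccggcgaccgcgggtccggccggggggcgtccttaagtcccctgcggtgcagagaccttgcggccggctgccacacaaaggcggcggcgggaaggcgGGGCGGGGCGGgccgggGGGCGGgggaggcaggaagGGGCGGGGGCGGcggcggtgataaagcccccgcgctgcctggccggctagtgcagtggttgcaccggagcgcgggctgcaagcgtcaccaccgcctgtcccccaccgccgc
The Ccn2 promoter held 3 copies of GGAATG, which start at positions -166, -101 and -92 from the start site. It also held the SMAD core at -174 and 30, the TATA box at -31, and the Sp1 box on the opposite strand at -43 and -13. Of 33469 rat promoters of this length, 14.2% held GGAATG at all and 0.0956% held 3 or more copies, while 50.1% held the SMAD core, 14.2% the TATA box and 33.1% the Sp1 box. The Serpine2 promoter, with 77.0% G and C, held 6 Sp1 boxes, of which 2 overlap by a base, and none of the other letters searched. Of the 33469 promoters, 8.97% held 3 or more Sp1 boxes. AP-1 letters, found in 4.63% of promoters, were in none of the 6 member promoters that the RefSeq table lists. Those of Tgfb1, Tgfb2 and Tgfb3 held none of the 5 motifs, and that of Thbs1 held the TEAD core at 1 place and the Sp1 box at 2. Promoters of Thbs2 and Fn1 were not used here. A match of letters is a description and was not tied to the arrays by any test.

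**Figure D1:**
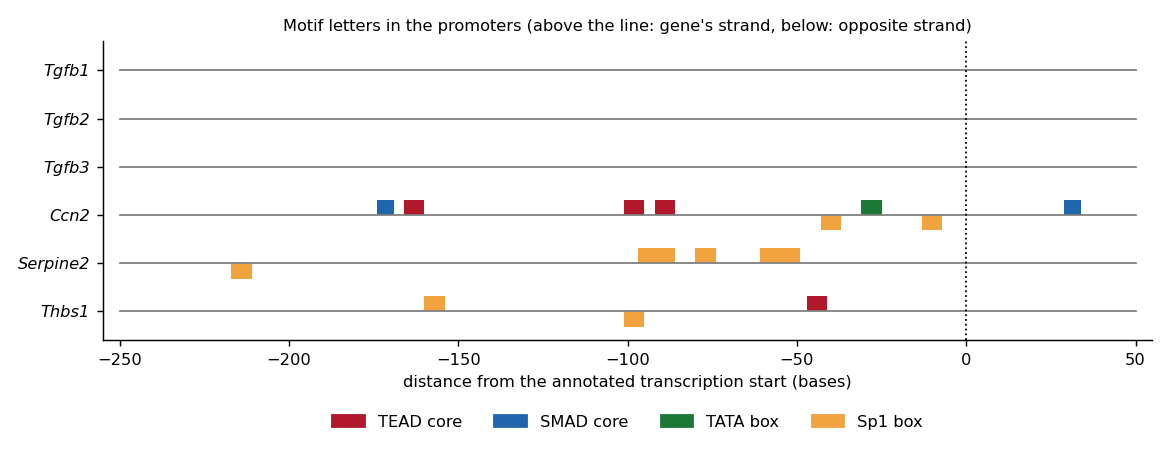
Positions of motif letters in the 6 member promoters, as distance in bases from the annotated transcription start (dotted line), with boxes above the line for the gene's strand and below it for the opposite strand. Ccn2 carries 3 TEAD cores and 2 SMAD cores, Serpine2 carries 6 Sp1 boxes, and the promoters of the 3 ligands carry none of the letters searched.

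As a check on the tissue, hepatocyte markers had the largest summed intensity of the 9 marker lists: 7 of 8 listed had a probe and all 7 were above background on every array. Between 72.5% and 78.7% of the 20174 probes were above background per array, and between 55.4% and 59.4% of those lay under 50 units above it. The log2 level of Gjb1 was 10.42 on the luteolin-fed transgenic array, 10.07 on the transgenic array, 10.40 on both wild-type arrays. No source says whether that probe can read the transgene, so Gjb1 is no check of the genotype labels.

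Levels are log2 intensities after background correction with an offset of 50 and quantile normalization, and the units above background are the authors' raw intensity less a constant per array. The ligands were dim. Tgfb1, the ligand made by macrophages, platelets and stellate cells, lay 10.0 units above background on the luteolin-fed transgenic array, 22.0 on the transgenic array, 14.6 on the luteolin-fed wild-type array and 9.34 on the array of unsupplemented wild-type rats. Its log2 levels were 5.99, 6.13, 6.04 and 5.97 in that order of arrays, a range of 0.16. Tgfb2 was likewise close to background, at 13.4 units on the luteolin-fed transgenic array, 21.9 on the transgenic array, 21.0 on the luteolin-fed wild-type array and 11.9 on the array of unsupplemented wild-type rats. The level of Tgfb2 spanned only 0.12 on the log2 scale, with the luteolin-fed wild-type array highest.

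Tgfb3, the third ligand, stood out among the 3. It lay 14.3 units above background on the luteolin-fed transgenic array, 52.7 on the transgenic array, 19.3 on the luteolin-fed wild-type array and 16.6 on the array of unsupplemented wild-type rats. Log2 levels were 6.10, 6.60, 6.13 and 6.15 in the same order, so the transgenic array without luteolin was 0.45 above the next array, and the other 3 spanned 0.0516.

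Ccn2 was the member that varied most. Its probe lay 58.7 units above background on the luteolin-fed transgenic array, 291 on the transgenic array, 57.2 on the luteolin-fed wild-type array and 74.1 on the array of unsupplemented wild-type rats. These correspond to log2 levels of 6.91, 8.26, 6.70 and 7.08. The transgenic array without luteolin stood 1.18 above the next highest array, the wild-type array, and the 3 lower arrays spanned 0.38.

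Serpine2 showed the same single high array. Its intensity above background was 147.0 units on the luteolin-fed transgenic array, 512.6 on the transgenic array, 198.5 on the luteolin-fed wild-type array and 163.3 on the array of unsupplemented wild-type rats. As log2 levels this was 7.81, 8.99, 7.83 and 7.87. The 3 lower arrays spanned 0.0548, and the transgenic array was 1.12 above the nearest of them.

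Thbs2 had the dimmest probe of the members, at 2.12 units above background on the luteolin-fed transgenic array, 9.96 on the transgenic array, 4.30 on the luteolin-fed wild-type array and 3.88 on the array of unsupplemented wild-type rats. With the offset its log2 levels (5.77, 5.91, 5.80 and 5.82) spanned 0.14, and at this signal a difference between arrays was not detectable. Fn1 had the brightest probe, with 3041 units above background on the luteolin-fed transgenic array, 4215 on the transgenic array, 4863 on the luteolin-fed wild-type array and 3046 on the array of unsupplemented wild-type rats. Its log2 levels were 11.79, 11.90, 12.05 and 11.76, and the highest array was the luteolin-fed wild-type one, unlike Ccn2 and Serpine2.

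**Figure D2:**
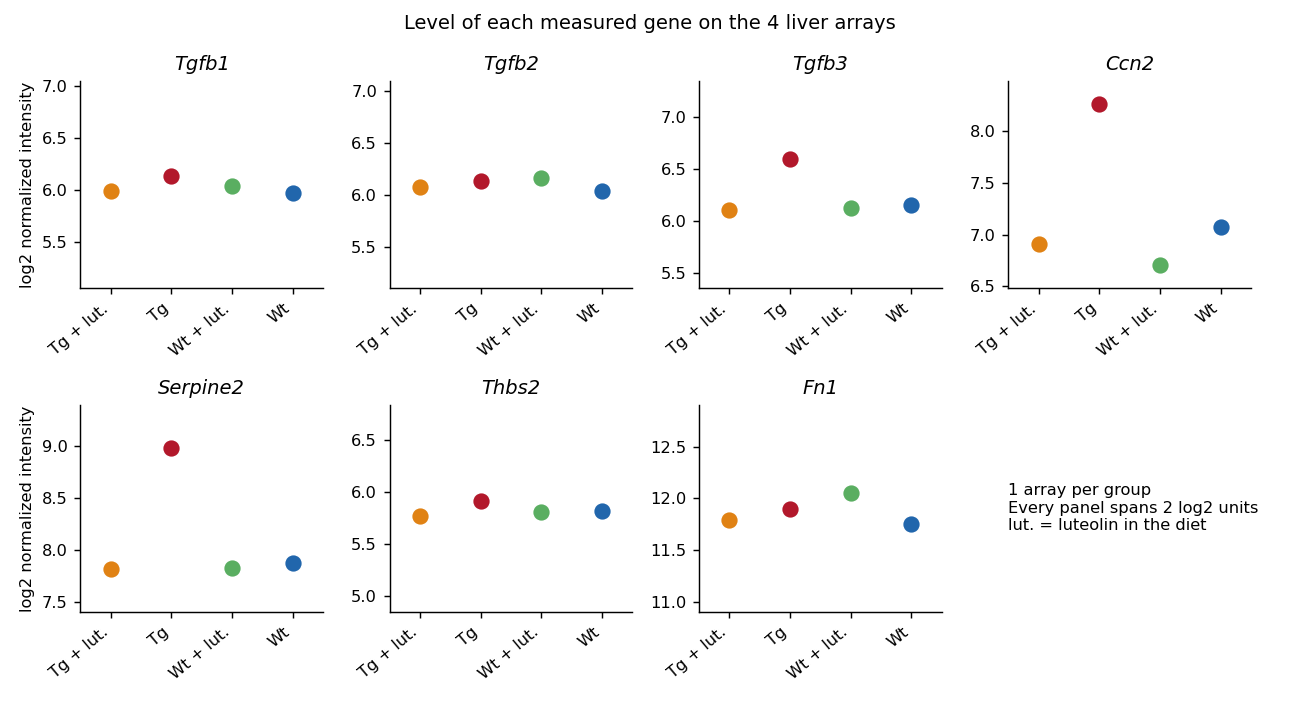
Log2 normalized intensity of the 7 measured genes on each array, 1 point per array, with every panel spanning 2 log2 units. Ccn2 (8.26) and Serpine2 (8.99) are high on the transgenic array without luteolin, and Tgfb3 is higher there by less. Tgfb1, Tgfb2 and Thbs2 span 0.12 to 0.16, and Fn1 spans 0.30 with the luteolin-fed wild-type array highest.

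The first comparison asked how luteolin in the diet related to these genes in transgenic rats. All 7 members had a lower level with luteolin, as did 6513 of the 14334 genes compared. By 2-fold or more 2 members were lower, where 0.167% of all genes were lower and 0.0907% higher. Ccn2 was 2.56-fold lower (log2 ratio -1.36), the sixth lowest ratio of all genes compared. Serpine2 was 2.25-fold lower (-1.17), the fourteenth lowest. Tgfb3 followed at -0.50, which 1.56% of genes lay below. The remaining ratios were -0.14 for Tgfb1, -0.05 for Tgfb2, -0.14 for Thbs2 and -0.11 for Fn1, all within the range that holds 90% of genes (-0.30 to 0.27). The members' median log2 ratio was -0.14, against 0.01 for all genes.

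In wild-type rats luteolin went with smaller differences. No member differed by 2-fold, where 0.0676% of 14800 genes were higher and 0.108% lower. In direction 3 of the 7 were higher and 4 lower, where 7385 of all genes were higher and 7380 lower. With median centring and with the authors' values it was 5 and 2, but there the median of all genes was also above 0, at 0.04 and 0.19. Ccn2 was again the lowest, 1.30-fold lower with luteolin (log2 ratio -0.38), and 1.49% of genes lay below it. Fn1 was 1.23-fold higher (0.30), with 2.83% of genes above it, and its log2 ratio was 0.61 with median centring and 0.52 by the authors' values. Relative to the median of all genes in the authors' values, the Fn1 ratio was 0.34. Serpine2 (-0.04), Tgfb3 (-0.02), Thbs2 (-0.01), Tgfb1 (0.07) and Tgfb2 (0.12) lay within 0.12 of no difference. The members' median was -0.01, against 0.00 for all genes. Subtracting the wild-type luteolin ratio from the transgenic one gave -0.98 for Ccn2, -1.13 for Serpine2, -0.47 for Tgfb3 and -0.40 for Fn1, and with 1 array per group these differences of ratios could not be tested.

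The next comparison set transgenic against wild-type rats on the diet without luteolin. It uses the same transgenic array as the first, so a gene high on that array is high here and low there whatever the reason, and the ratios are given side by side and not as a second finding. Every one of the 7 members was higher in the transgenic liver, as were 6930 of the 14727 genes compared. By 2-fold or more 2 members were higher, where 0.129% of all genes were higher and 0.0475% lower. Ccn2 was 2.27-fold higher (log2 ratio 1.18) and Serpine2 2.17-fold higher (1.12), at ranks 11 and 13 from the top. Tgfb3 was higher by 0.45, with 1.35% of genes above it. Tgfb1 (0.16), Fn1 (0.15), Thbs2 (0.10) and Tgfb2 (0.09) lay within the range of 90% of genes (-0.22 to 0.24). The members' median was 0.16, against -0.0047 for all genes.

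Between the luteolin-fed arrays, transgenic against wild type, the members were close together. None differed by 2-fold, where 0.104% of 14388 genes were higher and 0.0626% lower. In direction 1 member was higher and 6 lower, where 7399 of all genes were higher and 6964 lower. Ccn2 was 0.20 higher in the transgenic rats on the log2 scale, with 7.59% of genes above it, and -0.01 by the authors' values, where the median of all genes was -0.42. Fn1 was 0.26 lower, with 4.96% of genes below it, and its log2 ratio was -0.62 with median centring and -0.72 by the authors' values. Serpine2 (-0.02), Tgfb3 (-0.03), Thbs2 (-0.03), Tgfb1 (-0.05) and Tgfb2 (-0.08) differed by less than 0.1. The members' median was -0.03, against 0.00 for all genes.

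**Figure D3:**
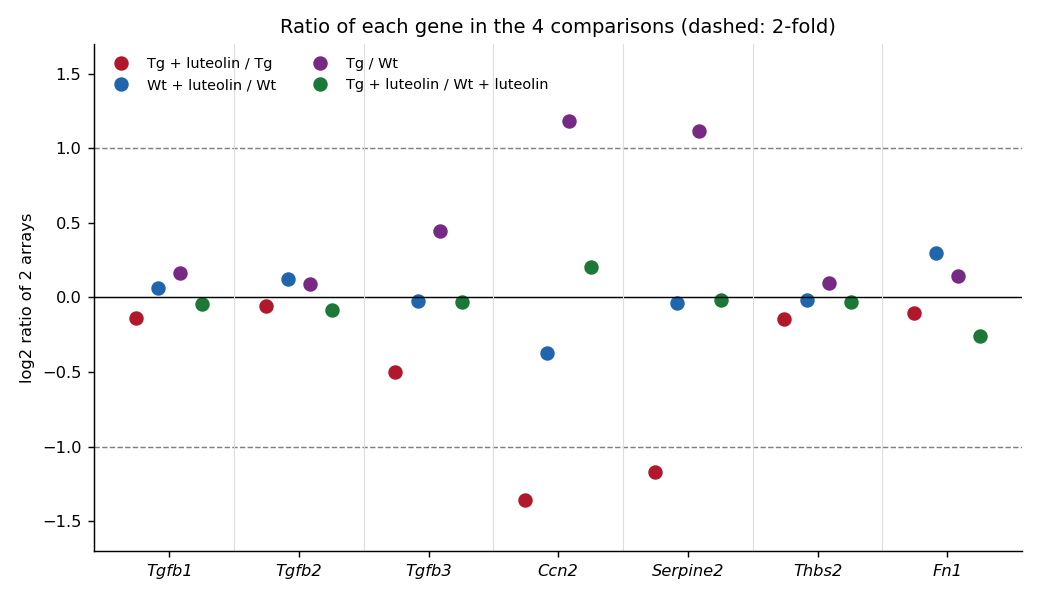
Log2 ratio of 2 arrays for each gene in the 4 comparisons, with dashed lines at 2-fold. Ccn2 and Serpine2 pass the lines in both comparisons that use the transgenic array without luteolin, downward with luteolin and upward against wild type, and no gene passes them in the other 2 comparisons.

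Genes high on a single array were counted as those at least 0.7 above the median of the other 3 arrays where these lay within 0.4 of each other. On the transgenic array without luteolin there were 45 such genes, 0.318% of 14131, and Ccn2 and Serpine2 were 2 of them. The luteolin-fed transgenic array had 3, the luteolin-fed wild-type array 6 and the wild-type array 1, with no member among them. Genes low on a single array numbered 11 on the transgenic array, 3 on the luteolin-fed transgenic array, 17 on the luteolin-fed wild-type array and 5 on the array of unsupplemented wild-type rats. The limits were set with earlier results of these data known, so the place of Ccn2 and Serpine2 in the count restates their levels. The lower arrays of Ccn2 spanned 0.38, just inside the limit of 0.4.

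A model with genotype and luteolin as additive terms, fitted with limma to the 14131 genes, asked whether mean differences exceeded the residual, which has 1 degree of freedom per gene and holds the interaction. At an adjusted p of 0.05 the luteolin term called 0% of genes and the transgene term 0%. Without adjustment, 1216 genes lay under 0.05 for luteolin and 1018 for the transgene. The luteolin term of Ccn2 was -0.87 (SE 0.30, limma adjusted p = 0.599) and that of Serpine2 -0.61 (SE 0.34, limma adjusted p = 0.716). For the transgene the terms were 0.69 for Ccn2 (SE 0.30, limma adjusted p = 0.740) and 0.55 for Serpine2 (SE 0.34, limma adjusted p = 0.831). When the limma prior was given a trend on intensity, Ccn2 passed both tests (adjusted p = 0.000769 and 0.0131), where the adjusted p over the 5 alternatives ran up to 1.00, and Serpine2 did not (0.0540 and 0.146). The luteolin term averages the ratios of both genotypes, which for Ccn2 were -1.36 and -0.38. The trended prior takes its variance from other genes of like intensity, so these p-values do not measure spread between rats. The labels do not say whether the single samples came from 1 or several animals, and technical spread cannot be told apart from biological spread.

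The genes whose profile over the 4 arrays was nearest to Ccn2, by root mean square difference of log2 levels after subtracting each gene's mean, were Col1a2 (0.04), the chemokine Ccl21 (0.06), the collagen cross-linking oxidase Loxl1 (0.09), Gpnmb (0.09) and Bex1 (0.10). Col1a2, the alpha-2 chain of type I collagen, had log2 levels of 7.92 on the luteolin-fed transgenic array, 9.30 on the transgenic array, 7.82 on the luteolin-fed wild-type array and 8.17 on the array of unsupplemented wild-type rats. Nearest to Serpine2 were Igfbp7 (0.08), the glucocorticoid-induced Tsc22d3 (0.08), the collagen chaperone Serpinh1 (0.09), the proteoglycan Ogn (0.09) and the lectin Lgals1 (0.10). Among the members, Serpine2 ranked 12 by likeness to Ccn2 (0.15), Tgfb3 ranked 205 (0.41), and Thbs2, Tgfb1, Tgfb2 and Fn1 lay at rank 1675 or later, of 11352 genes. Likeness over 4 arrays is a description of these arrays.

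Other genes around the pathway were taken from 10 lists, which hold 103 genes, 90 of them with a probe. In transgenic rats 12 of the 82 that could be compared were lower with luteolin by 1.5-fold or more and 0 higher, where 1.03% of all genes were lower and 0.488% higher. Against wild type without luteolin, 9 of 82 were higher and 0 lower by that much, where 0.686% of all genes were higher and 0.387% lower. In wild-type rats luteolin went with 1 of 81 lower (Timp1, log2 ratio -0.74) and 0 higher, against 0.378% and 0.297% of all genes. Between the luteolin-fed arrays it was 0 of 81 in either direction, against 0.431% of all genes higher and 0.445% lower. The lists hold matrix genes already known to differ on these arrays, so the counts are not independent evidence of a direction.

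Most receptor and signal carrier genes had small ratios, but the offset shrinks those of dim genes. Of the receptor list 4 of 5 genes were measured, and none differed by 1.5-fold in any comparison. Tgfbr1, the signalling receptor, had the largest ratio, -0.47 with luteolin in transgenic rats and -0.14 in wild-type rats. The list medians were -0.01 for luteolin in transgenic rats and 0.01 for transgenic against wild type. Among SMADs and their inhibitors, 9 of 11 genes were above background, and Smad3 was above it on no array. Only Pmepa1, a TGF-beta induced feedback inhibitor, passed 1.5-fold, at 0.61 higher in transgenic than in wild-type liver (-0.55 with luteolin in transgenic rats). Smad2 (-0.20), Bambi, a decoy receptor (-0.20), and Smad4 (0.02) gave smaller luteolin ratios in transgenic rats.

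Latency and activation genes were above background for 7 of 12. Itgb6, the epithelial integrin subunit that frees latent TGF-beta, was 0.90 lower on the log2 scale with luteolin in transgenic rats and 0.79 higher in transgenic than in wild-type liver. The latent TGF-beta binding protein Ltbp1 had ratios of -0.58 and 0.59 in those comparisons, and Ltbp2 (-0.09 and -0.04) and the protease Furin (0.13 and -0.25) were near 0 or of the other sign. Proteoglycans and antagonists (7 of 8 measured) had a median of -0.20 with luteolin in transgenic rats and 0.13 against wild type. Decorin (Dcn), which binds TGF-beta, was at -0.57 and 0.68, biglycan (Bgn) at -0.26 and 0.55, follistatin (Fst) at -0.20 and 0.14, and the protease trap A2m at -0.76 and -0.04. The activin and BMP list had a median of 0.18 with luteolin in transgenic rats and 0.02 against wild type, and no gene at 1.5-fold. Inhba was at 0.27 and -0.29, Inhbc at 0.21 and -0.33, Inhbe at 0.18 and -0.52, and Gdf15 at 0.20 and 0.14.

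Genes known as TGF-beta targets held 7 of the 12 genes at 1.5-fold for luteolin in transgenic rats and 4 of the 9 against wild type. Of the 13 above background, 7 had a luteolin ratio in transgenic rats of 1.5-fold or more downward, 3 of those past 2-fold, where 1.03% and 0.167% of all genes were, and the list median was -0.60. Col3a1 (-1.56), Col1a2 (-1.39) and Col1a1 (-1.33) led, followed by the metalloproteinase inhibitor Timp1 (-0.87). Against wild type, 4 of the 13 were higher by 1.5-fold or more, where 0.686% of all genes were, and the median was 0.44. Col3a1 was at 1.29, Col1a2 at 1.14 and Col1a1 at 0.99 there, the fourth was Tagln (0.70), a smooth muscle gene named here after its value was seen, and Timp1 at 0.54 was under 1.5-fold. In wild-type rats the list median for luteolin was -0.03.

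Of the other matricellular genes 9 of 15 could be compared in transgenic rats, and all 9 were lower with luteolin (median -0.16) and higher against wild type (median 0.22). Of all genes, 6513 of 14334 were lower and 6930 of 14727 higher in those comparisons. Sparc, a collagen-binding glycoprotein, was at -0.74 and 0.60, Sparcl1 at -0.62 and 0.50, and the thrombospondin Thbs4 at -0.32 and 0.28. Ccn1, a matricellular gene of the same family as Ccn2, differed little there: its ratio was -0.02 with luteolin in transgenic rats and 0.09 against wild type. In the other comparisons Ccn1 was at -0.44 with luteolin in wild-type rats and 0.50 for transgenic against wild type, both with luteolin. The list of YAP and TEAD genes holds 7 measured targets and the factors Yap1, Wwtr1 and Tead1 themselves, and had a median of -0.02 with luteolin in transgenic rats and 0.02 against wild type, with no gene at 1.5-fold among 10. In it Ankrd1 was at -0.21 and 0.18, Amotl2 at 0.18 and -0.02, and Axl at 0.08 and -0.01.

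Receptors for fibronectin and thrombospondin had a median of 0.00 with luteolin in transgenic rats and 0.16 against wild type (7 of 8 above background). The stellate cell integrin subunit Itga8 was at -0.61 and 0.38, the thrombospondin receptor and fatty acid carrier Cd36 at -0.46 and 0.31, Cd47 at 0.12 and 0.28, and Sdc4 at 0.15 and 0.16. Around Serpine2, no protease or inhibitor passed 1.5-fold in any comparison (9 of 10 above background, median 0.11 with luteolin in transgenic rats and -0.02 against wild type). Urokinase (Plau), a target of SERPINE2, was at -0.38 and 0.21, Plg at 0.53 and -0.38, and Serpinf2 at 0.31 and -0.46.

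**Figure D4:**
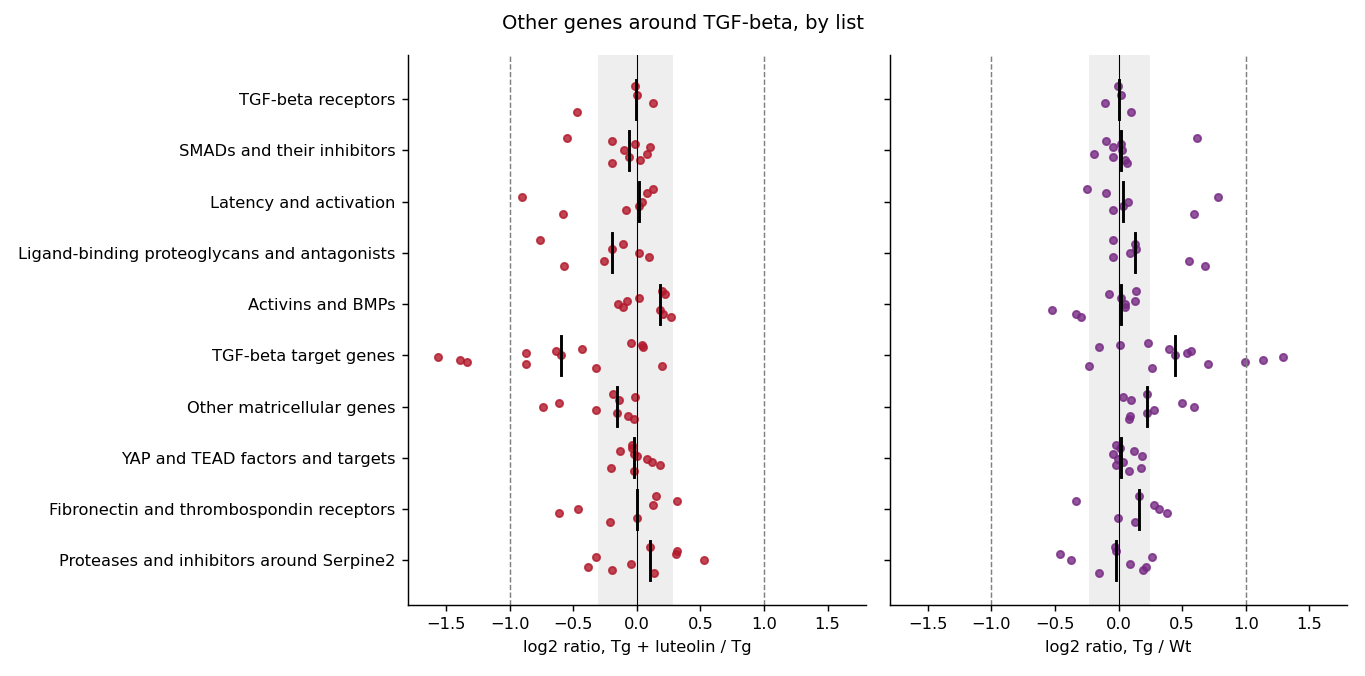
Log2 ratios of the listed genes above background, 1 point per gene, for luteolin in transgenic rats (left) and transgenic against wild type without luteolin (right). Black ticks are list medians, grey bands hold the middle 90% of all genes and dashed lines mark 2-fold. TGF-beta target genes have medians of -0.60 and 0.44, and the receptor, YAP and TEAD, and protease lists lie near 0.

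Markers of several cell types moved with Ccn2 and Serpine2, and their part in these ratios was not tested. In bulk liver RNA, fewer cells of a type and less RNA per cell cannot be told apart. All 9 measured stellate cell and myofibroblast markers (of 10 listed, Acta2 having no probe) were lower with luteolin in transgenic rats and higher against wild type, with medians of -0.43 and 0.29. Of all genes, 6513 of 14334 were lower and 6930 of 14727 higher in those comparisons. Col1a1, Tagln and Dcn are also counted in the pathway lists above. The summed authors' intensity of these stellate cell markers was 446 on the luteolin-fed transgenic array, 991 on the transgenic array, 643 on the luteolin-fed wild-type array and 630 on the array of unsupplemented wild-type rats. All sums here are on the authors' scale. There the median log2 ratio of all genes was -0.26 for luteolin in transgenic rats and -0.42 between the luteolin-fed arrays. Cholangiocyte markers followed (6 of 6 lower and 6 of 6 higher), with sums of 361, 800, 410 and 551 in that order of arrays. Unlike Serpine2, all 6 were also lower with luteolin in wild-type rats (median -0.28). Between the luteolin-fed arrays all 6 were higher in the transgenic liver (median 0.13). In the same order of arrays the macrophage sum was 2164, 4075, 2376 and 2741, and the log2 level of the lysozyme gene Lyz2 was 10.52, 11.74, 9.92 and 10.79. Of the macrophage markers, 4 of 6 were higher with luteolin in transgenic rats. Mesothelial markers summed to 134, 224, 146 and 132, with 4 of 5 lower with luteolin in transgenic rats and 4 of 5 higher against wild type. Platelet markers, of interest because platelets carry TGF-beta and thrombospondin, were near background, with sums of 27.6, 42.8, 26.7 and 35.0 over 4 probes and Gp1ba above background on 2 arrays. Endothelial sums were 162, 227, 232 and 227 (5 of 7 with a probe, Stab2 above background on 1 array), and those of T and NK cells 104, 136, 145 and 108. After quantile normalization the median log2 ratio between the luteolin-fed arrays was -0.03 for the endothelial list and 0.02 for T and NK cells. Hepatocyte markers summed to 111736, 122333, 139927 and 124360, and erythroid genes to 937, 494, 1240 and 577.

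The ratios of the dim members varied with the offset, and that of Fn1, whose probe was the brightest, with the scaling between arrays. In transgenic rats the luteolin ratio of Fn1 was -0.37 with median centring, against -0.11 after quantile normalization. With an offset of 16 in place of 50 the luteolin ratio of Tgfb3 in transgenic rats was -0.86 and that of Ccn2 -1.67. The authors' normalized values, which carry no offset, gave -2.15 for Ccn2, -1.64 for Serpine2, -1.73 for Tgfb3 and -2.07 for Thbs2, on a scale where the median of all genes was -0.26. Relative to that median these were -1.90, -1.39, -1.47 and -1.82. For transgenic against wild type the authors' values gave 1.62, 1.29, 1.31 and 1.00, and relative to the median of all genes (0.03) they were 1.59, 1.27, 1.29 and 0.98. In the same comparisons the authors' values gave -0.97 and 0.88 for Tgfb1, -0.55 and 0.52 for Tgfb2, and -0.31 and 0.11 for Fn1. For Tgfb1, relative to the median of all genes, these were -0.71 and 0.85. The Thbs2 ratios come from a probe with 2.12 to 9.96 units above background, where a few units make the ratio. Subtracting the local level of neighbouring rows of the files moved no member's level by more than 0.0367.

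**Figure D5:**
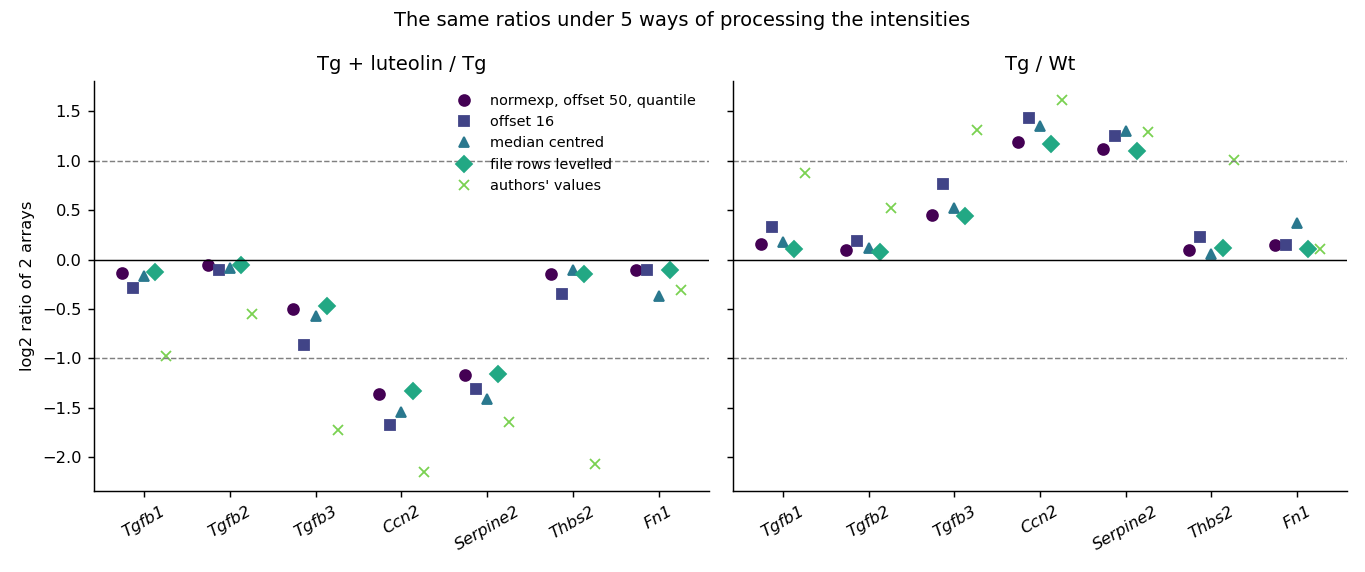
Log2 ratios of the 7 genes under 5 ways of processing the same intensities, for luteolin in transgenic rats (left) and transgenic against wild type without luteolin (right), with dashed lines at 2-fold. Ccn2 and Serpine2 pass 2-fold under all 5, Tgfb3 and Thbs2 only with the authors' values, and every ratio keeps its sign in both panels.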

How the data were processed

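Each sample's total liver RNA was amplified, and the product carried Cy5 dye, per the labels' protocols. The deposited files give, for each of 20174 probes per array, the authors' raw intensity, a background-subtracted intensity (raw less 37.5 to 39.8 units per array, blank where little was left) and a globally normalized intensity with the array median at 25. The series table held the last of these rounded, within 0.500, and served only for that check. No source names the scanner or its software. Raw intensities were corrected with limma's normexp (offset 50), taken to log2 and quantile normalized (R 4.3.3, limma 3.58.1). The offset shrinks ratios of dim genes. Flagged spots (2) were left out. A probe was above background where the authors gave a subtracted value. Probes were named through RefSeq tables by accession (10672 curated, 78 other), Entrez identifier (3123), symbol (1501) or synonym (206). The files' name was kept for 2562, 1990 had none and 42 conflicted. For the genes with several probes (88) the brightest was used. A gene was counted as different at 2-fold, or 1.5-fold for the lists, without a test, since each group had 1 array and the number of arrays limits precision. An additive limma model over all 4 arrays, Benjamini-Hochberg adjusted over 14131 genes, was tested on simulated data. Alternatives were median centring, an offset of 16, the authors' values, levelling over 51 rows, probe means, 2 filters and, for the model, an intensity trend. Members, lists and tests were chosen with earlier results of these data known. Named genes are all members, up to 4 per pathway list by largest ratio, the 5 nearest profiles of Ccn2 and of Serpine2, Gjb1, and markers used as measured facts. A gene that this rule names is not reported here. The files name no genome build, so only the RefSeq promoters carry coordinates (GRCr8).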

Additional observations from a re-analysis of the deposited data

Results flagged for a closer look

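Some members had ratios of opposite sign in the 2 genotypes or the 2 diets. With 1 array per group the difference was not tested, and since both contrasts use the same 4 arrays, the transgenic minus wild-type difference of luteolin ratios is the same number as the difference of genotype ratios with its sign turned. For Serpine2 the genotype ratio was -0.02 with luteolin and 1.12 without it, a difference of 1.13 (without minus with luteolin). For Tgfb3 it was -0.03 with luteolin and 0.45 without, a difference of 0.47. For Fn1 the luteolin ratio was -0.11 in transgenic and 0.30 in wild-type rats (difference -0.40), and the genotype ratio -0.26 with and 0.15 without luteolin (difference 0.40). Tgfb1 had luteolin ratios of -0.14 and 0.07 (difference -0.21) and a genotype difference of 0.21. Tgfb2 had luteolin ratios of -0.05 and 0.12 (difference -0.18) and a genotype difference of 0.18. Thbs2 had genotype ratios of -0.03 with and 0.10 without luteolin (difference 0.13). The ratios of Tgfb1, Tgfb2 and Thbs2 come from probes within 22.0 units of background.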

How the results depend on the processing

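Ccn2 and Serpine2 were at 2-fold or more, lower with luteolin in transgenic rats and higher in transgenic than in wild-type liver, under all 4 alternatives that can change a ratio of genes with 1 probe. The other 3 (probe means and both filters) return the same ratios for these genes. Over the 4 the Ccn2 ratios ran from -2.15 to -1.33 and from 1.17 to 1.62, and the Serpine2 ratios from -1.64 to -1.16 and from 1.09 to 1.29. With the authors' values, 4 members were at 2-fold in each of those comparisons in place of 2, 1 in place of 0 between the luteolin-fed arrays (Thbs2, -1.07), and 9 in place of 4 over the 4 comparisons. By those values 864 of 14334 genes were 2-fold lower with luteolin in transgenic rats, and 387 of 14727 higher against wild type. Between the luteolin-fed arrays 766 of 14388 were lower. Relative to the median of all genes in those values, 4 members were at 2-fold for luteolin in transgenic rats and 3 for transgenic against wild type. Between the luteolin-fed arrays it was 0, and in all 7, with no all-gene count on that relative scale. The authors' values carry no offset, and Tgfb3 and Thbs2, the members added, are dim. Of 112 member ratios under those 4 alternatives, 99 kept both their sign and their side of 2-fold, 5 passed 2-fold and 8 changed sign, all 8 from ratios of 0.20 or less in size. Only Ccn2, Serpine2 and Fn1 lay at least 50 units above background on every array. All-gene counts at 2-fold were 13 higher and 24 lower for luteolin in transgenic rats, 5 and 61 with median centring, and 44 and 864 with the authors' values. For luteolin in wild-type rats they were 10 and 16, 23 and 10, and 279 and 91. For transgenic against wild type without luteolin they were 19 and 7, 37 and 4, and 387 and 97, and with luteolin 15 and 9, 7 and 31, and 46 and 766. With an offset of 16 they were 24 and 72, 13 and 24, 37 and 10, and 22 and 13 in the same order of comparisons. In the additive limma model 0 genes passed for either term (1216 and 1018 at an unadjusted p under 0.05). With an intensity trend 341 passed for luteolin and 159 for the transgene, and with an offset of 16 it was 1 for luteolin. No paired analysis was possible because each group had 1 array, which also leaves no replicate to leave out.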
